A study of Mus musculus with 8 samples.

Results

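CpG-poor promoters of protein-coding genes were examined in ATAC-seq peak lists of mouse alveolar macrophages (AMs). Peaks of 8 libraries were merged wherever they shared a base, and 70896 autosomal regions held a peak in at least 2 libraries. In 14263 of them the summit, the point of highest signal, lay within 1 kb of a protein-coding transcription start site (TSS). Of these promoter regions, 2399 (16.8%) had a CpG observed/expected ratio of 0.4 or less in the 250 bp either side of the summit, and they are the CpG-poor promoters described here. They belonged to 2054 genes, of which 298 had more than 1 such region. For comparison, 9918 promoter regions with a ratio of 0.6 or more were called CpG-rich, 1946 lay between the limits, and 56633 regions with a summit over 1 kb from every protein-coding TSS were called distal.

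The 4 libraries KO 1_2, 1_3, 2 and 3 came from CD11cCre+ Rxrabfl/fl mice, and the other 4, WT 1_2, 1_3, 3 and 4, from CD11cCre- Rxrabfl/fl mice. All carried floxed Rxra and Rxrb, which encode the retinoid X receptors (RXRs) α and β, on a C57BL/6J background, and all were adult. The Cre transgene is driven by the promoter of Itgax (CD11c), which is active in AMs and also in dendritic cells, and AMs were collected by bronchoalveolar lavage. Whether libraries 1_2 and 1_3 of a genotype came from separate animals is not given, so p-values measure the spread between these libraries, which may be partly technical. The lists held 60363 to 72484 peaks, and the genome background worked back from them was 1.12 to 2.26 tags (read ends extended by the peak caller) per 200 bp. Of 13 AM markers, 10 had a promoter region, each with a peak in all 8 libraries, and 8 had a CpG-poor one. Chil3, Ear1 and Krt79 had none. Among the marker lists of other cell types, 1 of 6 B cell, 1 of 7 T cell, 2 of 7 neutrophil, 3 of 8 epithelial, 1 of 6 endothelial, 3 of 5 monocyte, 3 of 7 interstitial macrophage and 2 of 5 dendritic cell genes had a promoter region. Their part in the results was not tested.

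In mammals most promoters lie in CpG islands, where the CG dinucleotide is kept, and these promoters are usually open in many cell types. Promoters without an island have lost most CG dinucleotides and tend to belong to genes used in 1 cell type or on a stimulus. In macrophages, PU.1 (encoded by Spi1) and its partner factors AP-1, C/EBP, RUNX and IRF open such sites. RXRs act there as partners of PPARγ, LXR and other nuclear receptors, and the PPARγ:RXR pair prefers DR1, a direct repeat of AGGTCA with 1 base between the copies.

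The scarcity of CG is visible in the sequence itself. Below are 100 bases either side of the summit (mm10, 5′ to 3′ on the gene's strand), with every CG dinucleotide in capitals. Cd2 and Pparg were among the 3 strongest CpG-poor promoters of the AM identity list. Untranslated bases are left out of all sequences shown around summits. The third AM promoter, Spi1, is not shown because its summit lies within an untranslated region.
Cd2 (chr3:101288146-101288346, strand -): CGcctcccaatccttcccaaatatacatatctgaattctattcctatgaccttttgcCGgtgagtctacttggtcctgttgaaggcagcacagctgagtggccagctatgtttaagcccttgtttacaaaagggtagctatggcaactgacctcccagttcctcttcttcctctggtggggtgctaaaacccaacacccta
Pparg (chr6:115421735-115421935, strand +): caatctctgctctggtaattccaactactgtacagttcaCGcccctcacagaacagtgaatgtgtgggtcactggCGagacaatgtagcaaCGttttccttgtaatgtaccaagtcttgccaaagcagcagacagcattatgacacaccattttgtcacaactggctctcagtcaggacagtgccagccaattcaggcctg
In the whole window of 501 bp, Cd2 and Pparg each held 5 CG dinucleotides.

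**Figure D1:**
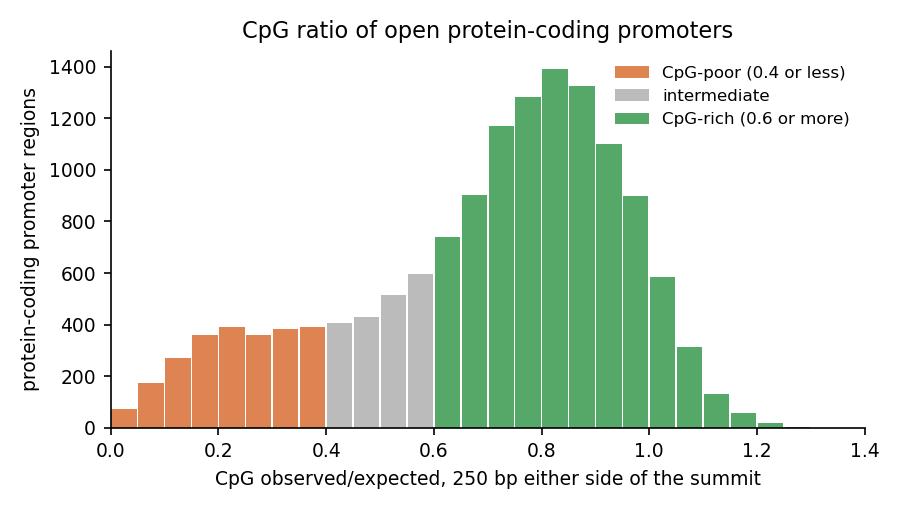
Number of protein-coding promoter regions (vertical axis) by CpG observed/expected ratio around the summit (horizontal axis, bins of 0.05). The 2399 CpG-poor promoters form the left shoulder, which runs on into the 1946 intermediate promoters, and the 9918 CpG-rich promoters form the main peak.

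The CpG-poor promoters had a median of 7 CG dinucleotides in 501 bp against 42 in CpG-rich promoters, and 18 had none. Their median GC content was 50.5% against 64.5%. The limit cuts a continuous distribution. The members nearest to it belonged to Trim56, Rnf213, Taok1, Wnt11 and Def6 (ratios of 0.3996 to 0.3999), and the regions just outside to Pcdhga12, Wwp2, Gas2, Ly6e and Synpr (0.40003 to 0.40040). A peak was present in all 8 libraries in 71.6% of the 391 members with a ratio over 0.35 and in 72% of the 407 promoter regions with a ratio over 0.4 and up to 0.45.

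CpG-poor promoters sat farther from the start site than CpG-rich ones. The summit was within 200 bp of the TSS in 997 (41.6%), against 78.8% of CpG-rich and 52.9% of intermediate promoters. It fell in an intron of an annotated transcript in 1064 members, upstream of the gene in 970, in an untranslated region in 307, in a coding exon in 53 and downstream in 5. In 864 members (36.0%) the gene also had a CpG-rich promoter region. A TATA box, TATAAA starting 40 to 20 bases before the TSS on the gene's strand, was found in 45 members (1.88%) and in 0.756% of CpG-rich promoters. Summits in repeat-masked sequence made up 11% of members and 4.18% of CpG-rich promoters.

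Most listed genes of immune recognition had CpG-poor promoters. Among all 11444 genes with a promoter region, 2054 (17.9%) had a CpG-poor one and 9078 (79.3%) a CpG-rich one, some having both. All 28 Fc and paired immune receptor genes listed had a promoter region, which was CpG-poor in 26. They include Fcgr1, Fcgr3 and Fcgr4, which bind antibody, and Tyrobp and Fcer1g, the adaptors through which such receptors signal. A CpG-poor promoter was found for 27 of 30 leukocyte surface and growth factor receptor genes, 19 of 22 lectin and pattern receptor genes, 23 of 30 haematopoietic signalling genes, 15 of 20 chemokine and cytokine genes and 12 of 16 interferon response genes. The shares were lower for lysosomal and secreted enzymes (15 of 23) and for lipid handling (12 of 27). Housekeeping genes, of the ribosome, proteasome and respiratory chain, were the opposite, with 2 of 28 CpG-poor (Psma1 and Rpl18) and 25 of 28 CpG-rich. Gene families showed the same split, in a look chosen after the data were seen. All 7 promoter regions of Ms4a genes, 9 of 10 of Cd300 genes, 12 of 15 of Clec lectin genes and 20 of 25 of olfactory receptor genes were CpG-poor, against 46 of 373 (12.3%) of Zfp zinc finger genes.

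**Figure D2:**
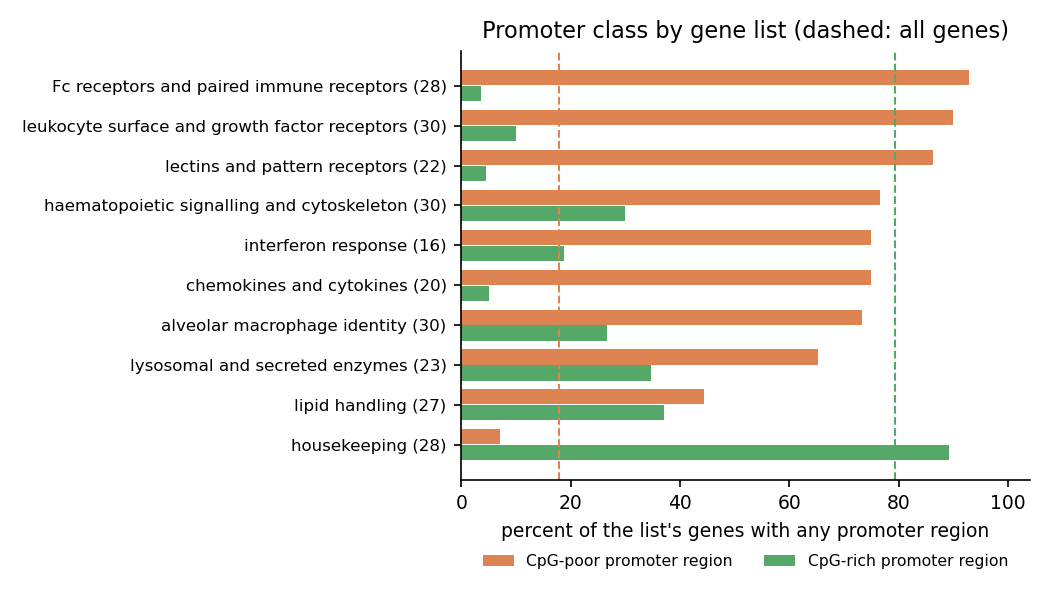
Percent of each list's genes with any promoter region (number in brackets) that had a CpG-poor (orange) or a CpG-rich (green) one, with dashed lines at 17.9% and 79.3% for all genes. Fc and paired immune receptors stand at the top with 26 of 28 genes CpG-poor and housekeeping genes at the bottom with 2 of 28.

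The short sequences bound by macrophage factors were commoner in CpG-poor than in CpG-rich promoters, at shares near those of distal regions. Both strands of the 100 bp either side of each summit were searched. GAGGAAGT (PU.1) was found in 11.7% of members, 2.17% of CpG-rich promoters and 12.3% of distal regions. For TGANTCA (AP-1) the shares were 11.3%, 2.82% and 13.7%, for TTGCNNAA (C/EBP) 14%, 4.09% and 16.8%, and for TGTGGTT (RUNX) 8.30%, 1.69% and 10.4%. A pair of GAAA with 2 bases between them (IRF) was found in 4.46% of members, 1.07% of CpG-rich promoters and 2.99% of distal regions. The DR1 repeat with at most 2 mismatches was found in 3.75%, 1.27% and 4.74%, and TTCCNNGAA (STAT) in 3.50%, 2.37% and 3.49%. The GC box, GGGCGG, ran the other way with 13.9%, 68.6% and 8.10%, as did CCAAT with 25.3%, 31.0% and 22.9% and the E-box CACGTG with 4.54%, 8.37% and 4.86%. The GC box and the E-box contain CG, so their shares follow in part from the rule itself. The median GC content was 50.5% in members, 64.5% in CpG-rich promoters and 46.9% in distal regions. No share was adjusted for base composition, so how far it accounts for the differences between classes was not tested. None of these matches was tested as a binding site.

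CpG-poor promoters were weaker than CpG-rich ones in every library. On average 86.1% ± 3.95 of them held a peak of a given library, against 95.1% ± 1.67 of CpG-rich promoters (SD, n = 8 libraries). The median peak was 351 ± 10.3 bp wide against 564 ± 44.9 bp, and the median fold enrichment over local background was 8.37 ± 0.370 against 14.8 ± 0.430. Each difference had the same sign in 8 of 8 libraries (exact sign-flip permutation test over libraries, two-sided, p = 0.0078, adjusted over the 3 measures p = 0.0078, the smallest p that 8 libraries allow). A peak was present in all 8 libraries in 1641 members (68.4%), between 60.9% of distal regions and 89.0% of CpG-rich promoters, with 65.4% over all autosomal regions. Members whose summit was within 200 bp of the TSS held a peak in all 8 libraries in 79.6% of cases, against 60.4% of those farther away. The mean number of tags at the summit had a median of 52.75 over members, 118 over CpG-rich promoters and 32.9 over distal regions.

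A part of the CpG-poor promoters was nevertheless among the most open regions of these cells. The 6 strongest belonged to Cyb5a (cytochrome b5), Tpcn2 (a lysosomal channel), Fggy (a carbohydrate kinase), Mylpf (a myosin light chain), Sh3tc1 and Zfp120. Cyb5a had 624, 540, 491 and 509 tags in KO 1_2, 1_3, 2 and 3 and 524, 597, 561 and 479 in WT 1_2, 1_3, 3 and 4. After scaling it was called higher in KO in the test described further on (0.22, limma with Benjamini-Hochberg adjustment, adjusted p = 0.0444), a call lost without any 1 library but KO 1_3 or WT 4, and under background-depth scaling, quantile normalisation and fold enrichment. Fggy, Mylpf, Sh3tc1 and Zfp120 were not called, with differences of 0.10, 0.04, -0.05 and 0.21. Tpcn2 had 578, 498, 482 and 461 tags in KO 1_2, 1_3, 2 and 3 and 568, 674, 577 and 568 in WT 1_2, 1_3, 3 and 4. Among genes of macrophage function, the promoter of Nckap1l, a haematopoietic regulator of actin, had 322 to 363 tags in KO and 350 to 377 in WT libraries. That of Cd68, a lysosomal glycoprotein of macrophages, had 319 to 376 and 363 to 464. Ncf4, a subunit of the phagocyte NADPH oxidase, had 235 to 303 tags in KO and 255 to 343 in WT. Tlr4, the endotoxin receptor, had 315 to 372 in KO and 297 to 423 in WT, and Lipa, the lysosomal acid lipase, had 288 to 331 and 280 to 401. For Tpcn2 and these 5 genes the KO and WT ranges overlapped, and none was called. The summit of Tpcn2 lay 801 bp downstream of a TSS. Olfactory receptor genes, which are not known for a role in macrophages, stood at the other end. Their 20 CpG-poor promoters had a median of 24.9 tags, and 7 of them held a peak in all 8 libraries.

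The marker lists of other cell types held 10 genes with a CpG-poor promoter. The strongest was that of Cd5, a T cell marker, with 161 to 202 tags in KO and 218 to 269 in WT libraries, with no overlap before scaling and no call (adjusted p = 0.146, limma with Benjamini-Hochberg adjustment). S100a8, a neutrophil calcium-binding protein, had 125 to 178 and 134 to 220, Scgb1a1, a secreted protein of airway club cells, 50 to 75 and 60 to 99, and Cd22, a B cell lectin, 43 to 67 over all 8 libraries. Others were those of Camp, Ccr2, Ly6c2, C1qc and Cx3cr1. The monocyte gene Ly6c2 had 11 to 20 tags in KO and 13 to 22 in WT. Cx3cr1, of the interstitial macrophage list, had 26 to 31 and 18 to 38 at its stronger promoter. Both had a peak in all 8 libraries. Cd79a, Cd3e, Cd8a, Ly6g, Sftpc and Cdh5 had no promoter region in any class. In the same or other lists Epcam, Cldn5, Flt3 and Zbtb46 had a promoter region that was not CpG-poor. Whether other cell types were present was not tested.

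The number of CpG-poor promoters detected in a library was not shown to depend on genotype. KO libraries held a peak in 1961, 2089, 2016 and 1998 of the 2399 (mean 2016 ± 53.8, SD, n = 4), and WT libraries in 2082, 2254, 2128 and 1997 (2115 ± 107, n = 4). The difference of -99.25 did not pass (exact permutation test over the 70 labelings, two-sided, p = 0.2, the smallest possible being 0.0286). It was -53.0 without WT 1_3 and -27.75 with lists of equal length. As a share of all autosomal peaks, member peaks made up 3.44% ± 0.0389 in KO and 3.39% ± 0.0921 in WT libraries (n = 4 each, exact permutation test, p = 0.514).

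Relative to CpG-rich promoters, CpG-poor ones were lower in KO. Over promoters with a peak in all 8 libraries, the median log2(tags + 0.5) of CpG-poor minus that of CpG-rich promoters was -0.896, -0.803, -0.874 and -0.841 in KO and -0.755, -0.723, -0.734 and -0.766 in WT libraries. Every KO library was below every WT library. The means were -0.853 ± 0.0404 and -0.744 ± 0.0198 (SD, n = 4 each), a difference of -0.109 (two-sided p = 0.0286 by exact permutation, which 4 against 4 libraries cannot go below). A single factor per library cancels out of this difference, but normalisation that acts unevenly over the range of tags can move it. On log2 fold enrichment in place of tags it was -0.0728 (exact permutation p = 0.0286). With any 1 WT library left out the groups still did not overlap and p was 0.0571. With libraries 1_2 and 1_3 of each genotype averaged into 1 sample the difference was -0.108. The exact permutation p was then 0.1, the smallest that so few samples allow. Relative to distal regions, CpG-poor promoters stood at 0.440 ± 0.0236 in KO and 0.416 ± 0.0252 in WT on the same scale. This difference of 0.0243 did not pass (exact permutation test, two-sided, n = 4 each, p = 0.171). The median difference in the fit described further on was 0.115 for CpG-rich and 0.063 for intermediate promoters (log2, KO minus WT). It was 0.043 for CpG-poor promoters and 0.019 for distal regions, so the shift against CpG-rich promoters was not particular to CpG-poor ones.

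**Figure D3:**
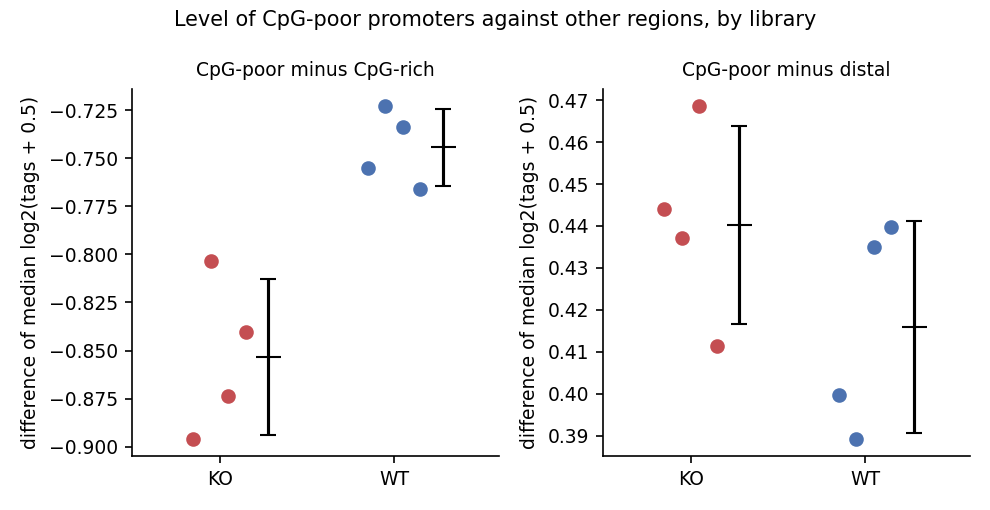
Difference of the class medians of log2(tags + 0.5) in each library (points) with the mean ± SD of 4 libraries (black), for CpG-poor minus CpG-rich promoters (left) and CpG-poor promoters minus distal regions (right). On the left the KO libraries lie between -0.896 and -0.803 and the WT libraries between -0.766 and -0.723, and on the right the groups overlap.

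Few CpG-poor promoters were open in 1 genotype alone. A peak in all 4 WT and no KO library was found in 12 members (0.5%), against 0.831% of all autosomal regions, and a peak in all 4 KO and no WT library in 2 (0.0834%), against 0.258%. The 2 shares were 0.161% and 0.0101% of CpG-rich promoters and 0.971% and 0.318% of distal regions, so members lay between these classes. With the lists shortened to equal length the counts of members were 11 and 7. Allowing 1 library to depart gave 71 and 23 members, where all regions gave 3.49% and 1.16%. Neither the first counts nor those with 1 library allowed to depart gave a share above that of all regions. For lists of equal length the share over all regions was not worked out. Of the 12 WT-only promoters, Arhgap27, a GTPase-activating protein, had the highest rank in its libraries' lists, with 55, 79, 71 and 69 tags in WT 1_2, 1_3, 3 and 4. Pbx2, a homeobox factor, had 37, 51, 44 and 44 tags, and Igflr1, an IGF-like family receptor, 35, 50, 30 and 41. The summit of Arhgap27 lay 994 bp upstream and that of Pbx2 604 bp downstream of a TSS. A further 8 (Fcrls, Abca13, Olfr432, Tm9sf1, Rnf181, G430095P16Rik, Mndal and Olfr979) had 12 to 51 tags. The KO-only promoters were those of Tas2r126, a bitter taste receptor, with 19, 17, 13 and 13 tags in KO 1_2, 1_3, 2 and 3, and Ecm1, an extracellular matrix protein, with 17, 22, 24 and 23. The weakest peaks of the libraries held 6 to 9 tags, so that an absent peak beside such values need not be an absent signal. The tags that a call needs also rise with the local background. Arhgap27, Rnf181 and G430095P16Rik averaged 68.5, 44 and 36 tags in WT. Their mean percentiles by q-value in the WT lists were 40.3, 16.3 and 12.9. How much KO signal lay where no peak was called cannot be read from the lists.

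Sequences around the summits of 3 one-sided promoters follow, chosen as the strongest in each direction (Arhgap27 is left out because its whole window is untranslated sequence of an annotated transcript). Capitals mark matches to any of the 10 motifs above, or to the TATA box.
Pbx2 (chr17:34593238-34593438, strand +): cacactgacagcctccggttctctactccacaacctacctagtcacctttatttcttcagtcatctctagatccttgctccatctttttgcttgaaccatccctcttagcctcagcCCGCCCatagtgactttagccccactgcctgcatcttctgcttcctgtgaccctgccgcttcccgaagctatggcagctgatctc
Tas2r126 (chr6:42434630-42434830, strand +): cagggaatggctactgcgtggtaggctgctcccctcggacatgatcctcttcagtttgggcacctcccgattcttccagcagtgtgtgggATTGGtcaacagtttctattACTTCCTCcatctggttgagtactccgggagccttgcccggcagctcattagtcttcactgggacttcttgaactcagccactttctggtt
Ecm1 (chr3:95739570-95739625, strand -): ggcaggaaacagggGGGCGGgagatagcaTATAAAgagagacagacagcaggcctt
Pbx2 holds a GC box read on the other strand, Tas2r126 a CCAAT and a PU.1 match on the other strand, and Ecm1 a GC box followed by a TATA box, its remaining window being untranslated.

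The level of promoters open in all libraries was compared with limma on log2(tags + 0.5), each library centred on its median and p-values adjusted over 46378 regions. Of the 1641 CpG-poor promoters fitted, 73 (4.45%) were lower and 91 (5.55%) higher in KO at an adjusted p under 0.05. Over all regions the shares were 6.81% and 6.06%, 12.9% together. Both shares of CpG-poor promoters lay below those of regions at large. CpG-rich promoters gave 133 lower (1.51%) and 716 higher (8.11%), and distal regions 2897 (8.40%) and 1931 (5.60%). The median difference was 0.04 for members, 0.05 for all regions, 0.12 for CpG-rich promoters and 0.02 for distal regions (log2, KO minus WT). The split rests on the scaling. With libraries scaled to their background depth, 44 members were lower and 20 higher, so that 68.8% of calls were lower in place of 44.5%, where all regions gave 4.22% lower and 1.17% higher. Of the calls, 7 of the lower and 4 of the higher ones were at least 2-fold.

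The largest decrease was at Aldh1l1, a folate-metabolising dehydrogenase, 79 bp upstream of a TSS. It had 25, 16, 21 and 15 tags in KO 1_2, 1_3, 2 and 3 and 75, 86, 88 and 64 in WT 1_2, 1_3, 3 and 4, a difference of -1.79 ± 0.17 (SE, limma, adjusted p = 1.29e-10). Lif, a cytokine of the interleukin-6 family, fell from 101, 96, 123 and 77 tags in WT to 42, 29, 32 and 27 in KO (-1.38 ± 0.15, adjusted p = 5.14e-09). At Gpr33, an orphan receptor related to chemoattractant receptors, KO libraries had 25, 37, 24 and 32 and WT libraries 73, 126, 85 and 56 tags (-1.25 ± 0.16). In these 3 promoters every KO library was below every WT library. The same held for Slc6a12, a betaine and GABA transporter, with 37 to 51 tags in KO and 89 to 138 in WT (-1.11), Kcnh4, a potassium channel, with 83 to 107 and 196 to 255 (-1.01), and Il7r, the interleukin-7 receptor, with 23 to 31 and 41 to 85 (-0.97). Arhgap23, Cald1, Mroh2a and 4921504E06Rik completed the 10 largest decreases, with differences of -1.03 to -0.94. On fold over local background Kcnh4 (-0.26, limma, adjusted p = 0.167), Arhgap23 (-0.35, adjusted p = 0.162) and Mroh2a (-0.39, adjusted p = 0.135) lost their calls.

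The largest increase was at Cd93, a receptor of myeloid and endothelial cells. It had 43, 46, 54 and 47 tags in KO 1_2, 1_3, 2 and 3 and 18, 28, 19 and 12 in WT 1_2, 1_3, 3 and 4, a difference of 1.56 ± 0.19 (SE, limma, adjusted p = 3.19e-08). Scd1, which makes monounsaturated fatty acids, rose from 15, 21, 17 and 12 tags in WT to 31, 28, 28 and 25 in KO (1.01 ± 0.19, adjusted p = 0.000205). Tppp3, a tubulin-binding protein, had 117 to 134 in KO and 57 to 87 in WT libraries (1.01), and Mymk, the muscle fusion protein myomaker, 41 to 51 and 18 to 34 (1.01). For these 4 the groups did not overlap. The summit of Mymk lay 822 bp downstream of a TSS. Tlr11, a receptor for microbial proteins, had 35 to 54 and 19 to 42 tags (0.83), where the ranges overlapped before scaling. Fgf1, S100a6, Glipr1l1 and 2 promoters of Prickle2 made up the rest of the 10 largest increases, with differences of 0.78 to 0.86. On fold over local background S100a6 (0.14, limma, adjusted p = 0.649) and 1 of the Prickle2 promoters (0.29, adjusted p = 0.0786) lost their calls.

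**Figure D4:**
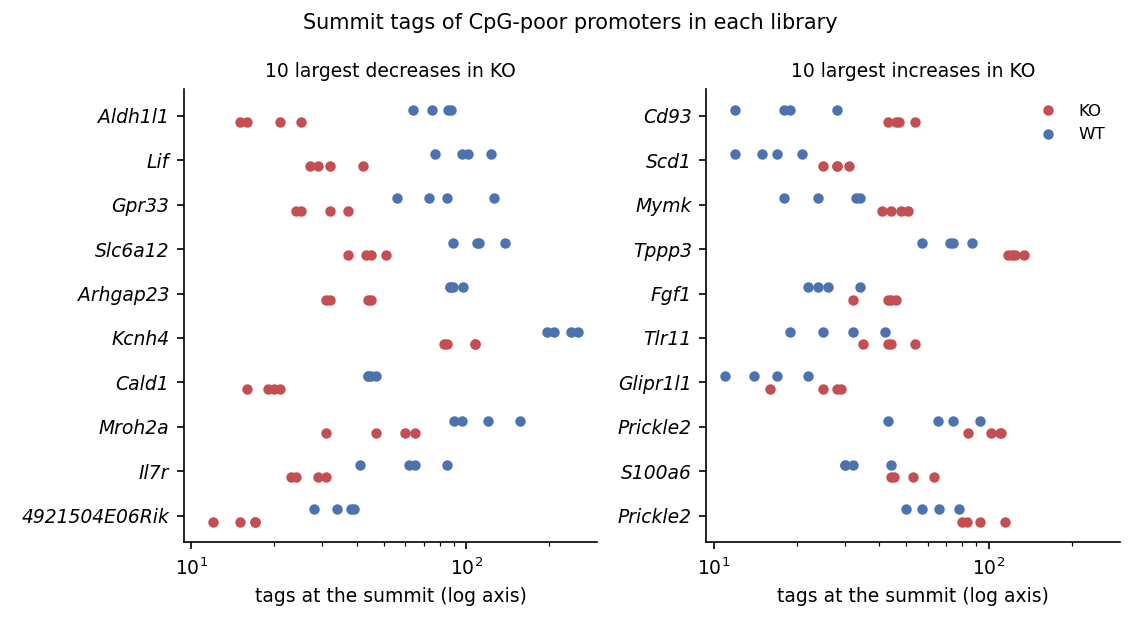
Tags at the summit (log axis, not scaled between libraries) of the 10 CpG-poor promoters with the largest decreases (left) and increases (right) in KO, each point 1 of 4 KO or 4 WT libraries. Aldh1l1 shows 15 to 25 tags in KO against 64 to 88 in WT and Cd93 shows 43 to 54 against 12 to 28, while the ranges of Tlr11 and Glipr1l1, among others, overlap.

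The promoters of Aldh1l1 and Scd1 are shown with the same motifs in capitals (Cd93 is left out because most of its window is untranslated).
Aldh1l1 (chr6:90550610-90550788, strand +): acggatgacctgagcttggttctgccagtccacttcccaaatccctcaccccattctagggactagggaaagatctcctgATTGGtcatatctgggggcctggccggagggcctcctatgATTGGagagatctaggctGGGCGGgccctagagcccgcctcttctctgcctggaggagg
Scd1 (chr19:44407799-44407999, strand -): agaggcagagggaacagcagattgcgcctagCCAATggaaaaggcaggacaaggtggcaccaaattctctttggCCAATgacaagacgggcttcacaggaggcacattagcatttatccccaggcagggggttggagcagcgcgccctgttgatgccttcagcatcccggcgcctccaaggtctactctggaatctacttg
Aldh1l1 carries a pair of CCAAT matches on the other strand and a GC box, and Scd1 a pair of CCAAT matches on its own strand.

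Of the 34 genes of the AM identity list, 22 had a CpG-poor promoter, in 28 regions. Of the 23 regions fitted, 5 passed the test, 3 lower and 2 higher, where all regions gave 6.81% and 6.06%, and the list's median difference was -0.03 against 0.05 over all regions. The list and its members were chosen with results of these data known. Fabp4, a fatty acid-binding protein that marks mature AMs, fell (56, 49, 44 and 52 tags in KO 1_2, 1_3, 2 and 3, 79, 106, 102 and 93 in WT 1_2, 1_3, 3 and 4, difference -0.69 ± 0.14, limma, adjusted p = 0.000312). Cidec, a lipid droplet protein, fell at both of its CpG-poor promoters. At the one 84 bp upstream of a TSS it had 139, 144, 100 and 113 tags in KO and 205, 256, 196 and 142 in WT (-0.45 ± 0.10, adjusted p = 0.00118), and at the one 220 bp upstream 157 to 207 and 219 to 279 (-0.28). The second call was lost whenever KO 1_2, KO 2, KO 3, WT 1_2, WT 3 or WT 4 was left out. Cd2, an adhesion receptor, rose by 0.31 with 182 to 246 tags in KO and 140 to 271 in WT, with means that lie close before scaling. It lost its call without KO 1_2, KO 3 or WT 4, with background-depth scaling (0.24, limma, adjusted p = 0.546), with quantile normalisation (0.24, adjusted p = 0.0648) and on fold enrichment (0.09, adjusted p = 0.529). The other 18 regions fitted had differences of -0.33 to 0.21, none of them called. Pparg, the RXR partner that specifies AMs, had 171 to 201 tags in KO and 188 to 247 in WT at its stronger promoter. After scaling its difference was 0.01, and the differences in brackets below are likewise after scaling. Spi1, with its summit 622 bp downstream of a TSS, had 183 to 216 and 218 to 260 (-0.03). Siglecf, a sialic acid receptor used to sort AMs, had 46 to 71 and 60 to 110 (-0.27). Marco, a scavenger receptor, had 42 to 51 and 36 to 75 (-0.07). Mrc1, the mannose receptor, had 47 to 71 and 62 to 97 (-0.19), and Plet1 81 to 99 and 90 to 130 (-0.08). Olr1, the oxidised LDL receptor, had 100 to 152 and 155 to 200 (-0.27), and Ear2 24 to 34 and 35 to 49 (-0.33). Ctsk, with its summit 409 bp downstream of a TSS, had 130 to 170 and 149 to 194 (-0.03). Maff had 113 to 165 and 144 to 169 (0.005). The ranges of Spi1, Olr1 and Ear2 did not overlap before scaling. Further above 0 after scaling, without a call, were Cd69, Atp6v0d2, Il1rn and a Ucp3 promoter. Cd69 had 36 to 56 tags in KO and 39 to 61 in WT (0.21). Atp6v0d2, a proton pump subunit, had 183 to 236 and 191 to 252 (0.21). Il1rn, the interleukin-1 receptor antagonist, had 60 to 95 and 63 to 103 (0.10). Ucp3 at a promoter 996 bp downstream of a TSS had 39 to 51 and 45 to 55 (0.12). Lima1 (0.03) and the second Pparg promoter (0.05) were near 0, and Ear6 (-0.07) and Fabp1 (-0.28) were below. The summit of Fabp1 lay 894 bp downstream of a TSS. Ucp3, a mitochondrial carrier, had a peak 56 bp upstream of a TSS in 4 WT libraries (27, 51, 33 and 35 tags) and in KO 2 and KO 3 alone (31 and 22 tags).

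Itgax stood out for another reason. Its promoter, 26 bp upstream of the TSS, was higher in KO (167, 202, 166 and 151 tags in KO 1_2, 1_3, 2 and 3, 140, 158, 142 and 105 in WT 1_2, 1_3, 3 and 4, difference 0.56 ± 0.10, limma, adjusted p = 3.51e-05). A second CpG-poor promoter 561 bp upstream had 85, 89, 76 and 68 tags in KO and 45, 61 and 55 in WT, with no peak in WT 4. All 6 distal regions fitted within 15 kb of the Itgax TSS were higher in KO too, by 0.69 to 2.22. The one 7.65 kb downstream of the TSS had 304 to 372 tags in KO and 66 to 104 in WT. The local background that the peak caller used at the promoter was 21.5 to 27.8 tags in KO and 10.3 to 16.5 in WT, and on the fold over that background the promoter was lower in KO (-0.44, limma, adjusted p = 0.0493). KO mice carry the Cre transgene with Itgax promoter sequence and WT mice do not, so that reads of the transgene and of the gene cannot be told apart here.

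Lipid handling had the lowest median difference of the 9 macrophage lists. Like the AM identity list, it was chosen with results of these data known. Of its 13 CpG-poor promoters fitted, 4 fell, 1 rose and 8 did not pass, where 6.81% of all regions were lower and 6.06% higher, and the median difference was -0.28 against 0.05 over all regions. The falls were those of Fabp4, both Cidec promoters and Cd36, the fatty acid scavenger receptor, of which all but Cd36 also stand in the AM identity list. Cd36 had 160, 168, 119 and 108 tags in KO 1_2, 1_3, 2 and 3 and 168, 223, 231 and 166 in WT 1_2, 1_3, 3 and 4 (-0.29 ± 0.10, limma, adjusted p = 0.0488). It lost its call without KO 2, KO 3, WT 3 or WT 4. Scd1, given above, was the rise. Under background-depth scaling Fabp4, Scd1 and the Cidec promoter 84 bp upstream kept their calls, and Cd36 and the other Cidec promoter lost them. On fold over local background Fabp4, Cd36 and both Cidec promoters lost theirs, with differences of -0.23, -0.07, -0.14 and 0.04.

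In the other lists 0 to 3 CpG-poor promoters passed, to be read against the 12.9% of all regions called in either direction. Of 27 fitted promoters of leukocyte surface and growth factor receptors, Itgax alone was called. Of 24 of Fc and paired immune receptors, Trem2, a lipid-sensing receptor, was called (67 to 94 tags in KO, 55 to 79 in WT, 0.46), its summit lying 1000 bp from the TSS at the edge of the rule. Of 21 of lectins and pattern receptors, Clec4b1 (-0.34) and Cd36 were lower and Msr1, a scavenger receptor, higher (0.71, 25 to 37 tags in KO and 13 to 32 in WT). Of 15 of chemokines and cytokines, Ccl3, a neutrophil and monocyte chemoattractant, rose from 67, 83, 98 and 68 tags in WT to 120, 106, 83 and 73 in KO (0.48 ± 0.13, limma, adjusted p = 0.00781), with overlapping ranges before scaling and no call without KO 1_2. Of 29 of haematopoietic signalling genes, Hcls1 fell (-0.72), and of 14 of interferon response genes, Mx1, an antiviral GTPase, rose (0.58, 33 to 47 and 25 to 41 tags). None of 14 of lysosomal and secreted enzymes was called. Trem2, Clec4b1, Msr1 and Mx1 are named because they passed, after their values were seen. Several of these genes (Clec4a, Clec4b, Cd300, Naip and Ear families) have near-identical copies, where the mapping quality filter can remove reads.

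Among the CpG-poor promoters, 90 held a DR1 match, and their calls were counted apart, a choice made after the calls were seen. Of the 64 fitted, 10 (15.6%) were lower and 2 (3.12%) higher, against 63 (3.99%) and 89 (5.64%) of the 1577 without a match. Their median difference was -0.06 against 0.05. Distal regions with a match had 18.3% lower and 2.85% higher, and CpG-rich promoters with one 0.833% lower and 5.83% higher. A match to the same repeat written backwards, in 66 fitted members, went with 2 lower (3.03%) and 4 higher (6.06%). The backwards repeat was not as low in every class. Of 32 fitted intermediate promoters with it, 5 (15.6%) were lower and 2 higher, the same share lower as in members with DR1. With DR1 itself, 3 of 37 intermediate promoters (8.11%) were lower and 1 higher. Of 1061 distal regions with the backwards repeat, 77 were lower and 70 higher. No test was run on the choice of DR1. Among members with 1 of the other 9 motifs, the highest share lower was that of the E-box, 5 of 72 (6.94%). The matched sites of the 10 lower promoters follow, on the strand of the match, with the 13 bases of the repeat in capitals.
Gpr33 (chr12:52028477-52028505, strand +): cagaatgaAGGTGACAGGTCAaagactgt
Chic2 (chr5:75045510-75045538, strand -): gtgaaaccAGGTCCAAGGTGAtccatgag
Hcls1 (chr16:36934336-36934364, strand +): tgtagagtATGTCAGAGTTCAattcacca
Procr (chr2:155751512-155751540, strand -): ctataattAGGTCAAAGTTCCcaaataca
Cluh (chr11:74650422-74650450, strand +): gtttttttAAGGCAAAGGTCAttagtgtg
Kcnab2 (chr4:152448062-152448090, strand -): accatgccAGGGGAAAGGTCAgcgttgag
Sec22b (chr3:97901770-97901798, strand -): atcgagctAGGTCAAGGATCAagagctac
Mroh1 (chr15:76379472-76379500, strand -): gttgaaccAGGTCAGAGGCAAacacacag
Adcy10 (chr1:165484914-165484942, strand -): ctgaaattAGGTCACAGTTGAtaggtgac
Cd36 (chr5:17835939-17835967, strand +): atccaagtAAGTCAGAGGCCAgagaacca
Gpr33 departs from the repeat at 1 base and the other 9 at 2. Their matches lie 15 to 68 bp from the summit.

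Most of these 10 promoters lie well away from the start site, with summits 215 to 985 bp from it. Chic2, a vesicle-associated protein, had 43, 61, 45 and 38 tags in KO 1_2, 1_3, 2 and 3 and 87, 117, 100 and 67 in WT 1_2, 1_3, 3 and 4 (-0.75). Hcls1, a substrate of Src-family kinases in haematopoietic cells, had 90, 65, 45 and 55 and 111, 139, 132 and 99 (-0.72), and Procr, the protein C receptor, 29, 25, 21 and 25 and 46, 64, 46 and 37 (-0.69). In each of these 3 every KO library was below every WT library. Cluh, which binds mRNAs of mitochondrial proteins, had 72 to 84 tags in KO and 119 to 173 in WT (-0.62), and Adcy10, the soluble adenylyl cyclase, 109 to 157 and 149 to 287 (-0.39). Kcnab2 (-0.60), Sec22b (-0.53) and Mroh1 (-0.41) were the others beside Gpr33 and Cd36. Of the 2 higher ones, Trpm2, a calcium channel, stood at 0.42. Among the one-sided promoters, WT-only Rnf181 (31, 48, 51 and 46 tags in WT) and KO-only Ecm1 held a match.

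**Figure D5:**
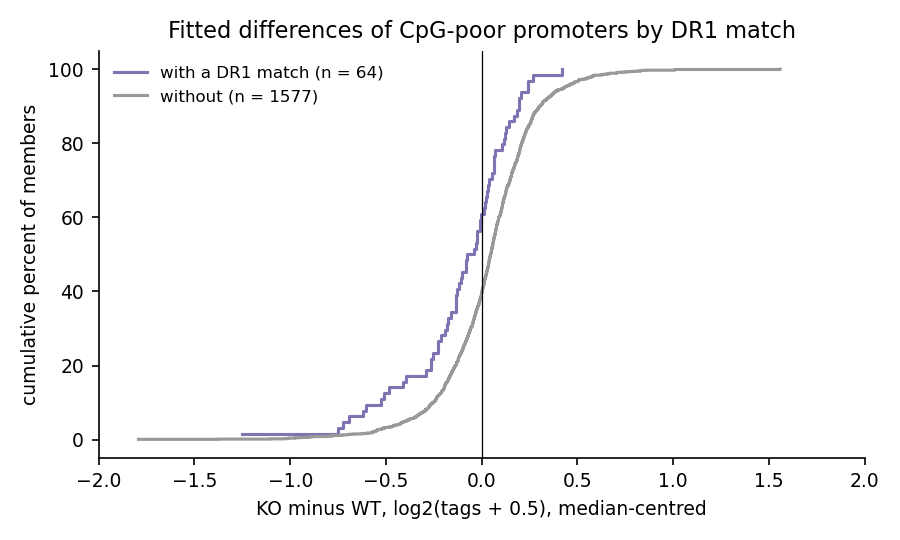
Cumulative percent of CpG-poor promoters fitted (vertical axis) by KO minus WT difference in median-centred log2(tags + 0.5) (horizontal axis), for 64 with and 1577 without a DR1 match. The line with a match lies to the left, with medians of -0.06 and 0.05.

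No difference in motif make-up between the genotypes passed its test. The share with a PU.1 match was 12.1% ± 0.129 in KO and 11.7% ± 0.174 in WT libraries (SD, n = 4 each), the smallest unadjusted p of the 10 motifs (exact permutation test, two-sided, p = 0.0571, adjusted p = 0.571). With DR1 the shares were 3.41% ± 0.305 and 3.71% ± 0.206 (exact p = 0.2, adjusted p = 0.667). No motif passed after adjustment over the 10, and 0 of 10 had an unadjusted p under 0.05.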

How the data were processed

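The authors isolated AMs by lavage, made ATAC-seq libraries, trimmed reads (Cutadapt), aligned them to mm10 (Bowtie2), removed duplicates, filtered on mapping quality and called peaks per library with MACS3 at a q-value limit of 0.05. The 8 deposited peak lists give, for each peak, its summit, a score, the fold enrichment (a ratio to local background), the −log10 p and the −log10 q. The summits of all deposited peaks had a q-value of at most 0.0465, and reads and counts were not used here.

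Members and gene lists were chosen with earlier results of these data known. Promoters came from GENCODE M21. The number of tags under a summit was solved for from its fold enrichment together with its −log10 p, and the p recomputed from them matched in 100% of peaks (relative tolerance 1e-05). Regions with a peak in all 8 libraries were compared with limma 3.58.1 (R 4.3.3) on log2(tags + 0.5), centred on each library's median, with Benjamini-Hochberg adjustment over 46378 regions and calls at an adjusted p under 0.05. Regions without a peak in a library have no value there and were not fitted, and none was imputed. One value a library was set against genotype by exact permutation. Other steps used Python 3.11.15, numpy 2.4.6, pandas 2.3.3 and matplotlib 3.10.9. On simulated tags with 200 of 46378 regions changed, the KO against WT fit found 64.5% of 1.5-fold, 96.0% of 2-fold and 100% of 3-fold changes. It also called 9, 13 and 8 unchanged regions in these runs, and with none changed it made 0 calls. The simulation gave all regions the same dispersion and had no replicate effect, so its false calls need not hold for the real fit. Genes named are the one-sided members, the 10 largest called differences in each direction, the AM identity list, up to 5 of each other list by strength and the 6 strongest members. Exceptions are said to be chosen afterwards. Alternatives covered scaling, pseudocount, filter, CpG limit and window, TSS distance, motif window, list length and each library left out. Sequences and positions are those of mm10 (GRCm38). Results for some genes and 1 sequence are not reported here.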

Additional observations from a re-analysis of the deposited data

Results flagged for a closer look

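Among 40 sets of 4 libraries, 3 held a library far from the other 3, by a gap to the nearest that took up most of the range (Dixon's ratio). Chance alone gives about 1 in 20 such sets. The share of member peaks with an AP-1 match was 11.8% (11.7512) in WT 1_2 and 11.487 to 11.526% in the other WT libraries. The share with an IRF match was 4.46% (4.45521) in KO 2 against 4.757 to 4.812%, and that with a GC box was 15.1% (15.109) in KO 2 against 15.498 to 15.531%. No genotype difference in these shares passed its test.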

How the results depend on the processing

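The lower level of CpG-poor against CpG-rich promoters in KO kept its direction in every alternative run. It was -0.126 to -0.0947 with 1 library left out (p = 0.0571 without any 1 of the WT libraries, exact permutation test). With libraries 1_2 and 1_3 as 1 sample it was -0.108 (exact p = 0.1, the smallest that so few samples allow). Against all other promoters, a choice made after seeing the data, it was -0.104 (exact p = 0.0286). Of those promoters 8825 were CpG-rich and 1425 intermediate, so this setting largely repeats the main comparison. With replicate numbers as a block over 1_2, 1_3 and 3 it was -0.109 (exact p = 0.25, the smallest 3 pairs allow), and 74 members were called lower and 145 higher in place of 73 and 91. Libraries with the same number correlated at 0.0553, 0.117 and 0.0370, and each correlated best with its own. These values are small. Whether same-numbered libraries were prepared together is not given and was not tested.

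Background-depth scaling gave 44 lower and 20 higher calls, fold enrichment 22 and 17, and a TSS distance of 500 bp 45 and 65, and leaving out a library gave 51 to 73 lower and 62 to 111 higher. On fold enrichment the Cidec promoter 220 bp upstream stood at 0.037 and Itgax at -0.44, both turned. For promoters with a DR1 match, lower and higher calls were 6 and 0 with background-depth scaling, 5 and 0 on fold enrichment, and 7 and 5 without WT 4. Within 50 bp 6 of 25 were lower, and with at most 1 mismatch 1 of 10.

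WT-only members numbered 5 within 500 bp of the TSS, 26 with 1_2 and 1_3 as 1 sample, 71 with 1 library allowed to depart, and 14 to 24 with a library left out (23 without KO 1_3, 20 without KO 3, 24 without WT 1_2, 19 without WT 3 and 22 without WT 4). KO-only members numbered 7 with 1_2 and 1_3 as 1 sample, 23 with 1 library allowed to depart and 3 to 7 with a library left out (4 without KO 1_2 or WT 1_2, 5 without KO 1_3 or WT 1_3, 6 without WT 3 and 7 without KO 2). In these settings, other than the TSS distance, fewer libraries are required by construction. With lists of equal length, where 4 and 0 libraries are still required, KO-only members numbered 7 and WT-only 11, and the cause was not tested. Of these settings, only that with 1 library allowed to depart was set against its share over all regions.

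None of the following passed a test in any setting. The member share of peaks was -0.0231 (KO minus WT) in lists of equal length. Motif shares turned within 50 bp for AP-1 (-0.154) and E-box (0.316), and in the 1000 strongest peaks for PU.1 (-0.375), RUNX (0.0750) and the GC box (-0.0500). With a library left out they ran from -0.0680 to 0.111 for AP-1, -0.227 to 0.0486 for C/EBP, -0.124 to 0.187 for E-box, -0.174 to 0.251 for the GC box and -0.0269 to 0.0920 for IRF. The cause of these changes was not tested. Of 28 named calls, 23 held under background-depth scaling, 15 on fold enrichment and 24 to 28 with a library left out. Peak lists hold no value where no peak was called, which limits weak promoters most.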
